A study of Mus musculus with 8 samples.

Results

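The genes described here are 36 genes of fatty acid oxidation and the carnitine shuttle, taken as a named list: the carnitine shuttle, the enzymes that activate or release fatty acids, the mitochondrial and peroxisomal enzymes that shorten them, the electron transfer flavoprotein system and 2 transcriptional regulators. Of the 36, 33 had a probe set that the platform annotation assigns to exactly 1 gene symbol, and where a gene had several, the one of highest mean over the arrays was used. Cpt1b, Acsl1 and Acsl3 had none and were not analysed here. Of the 33, 28 passed the filter on low values and were tested, among 8003 tested genes of 12393 genes with a probe set. The filter used the mean over all 8 arrays, not the level in 1 group.

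OT-1 mice gave the CD8 T cells. These cells carry a transgenic receptor for a peptide of ovalbumin. They were activated into cytotoxic T cells and then spent 4 h with cells of the mouse ovarian cancer line ID8 that had been loaded with this peptide, at 30 T cells per tumour cell, before magnetic separation. In 1 group the ID8 cells overexpressed PD-L1, which engages the inhibitory receptor PD-1 on T cells, and in the other they were depleted of PD-L1, so both groups share the receptor, the activation and the peptide. T cells kept without targets and unmodified ID8 cells are not among these samples. T cells of 4 mice, called A to D, were divided between both kinds of target, which gave 4 arrays per group and 2 per mouse. The labels do not give the age or sex of the mice, how the T cells were activated, or how PD-L1 was changed.

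Long-chain fatty acids are joined to coenzyme A by acyl-CoA synthetases, passed to carnitine by Cpt1a on the outer mitochondrial membrane, carried across the inner membrane by the translocase Slc25a20, and returned to coenzyme A by Cpt2. Inside, each turn of beta-oxidation removes an acetyl unit through a dehydrogenase, a hydratase, a hydroxyacyl dehydrogenase and a thiolase, while isomerases and a reductase deal with double bonds and the electron transfer flavoprotein passes electrons to the respiratory chain. Effector CD8 T cells are known for relying on glycolysis and memory CD8 T cells for using fatty acid oxidation, and in human CD4 T cells PD-1 ligation has been reported to raise CPT1A and fatty acid oxidation.

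Values are deposited log2 expression values of a probe set, so a difference of 1 is a doubling, and levels of different genes are not set against each other. The defining CD8 T cell markers were high on all arrays, and the summed level of the 8 measured of 9 listed ran from 15.78 to 15.86 with PD-L1-overexpressing targets and from 15.77 to 15.88 with PD-L1-depleted targets. Markers of the tumour cells were also read, and no array of ID8 cells alone is among these samples. The summed level of the 15 measured of 18 listed markers of ID8 and mesothelial cells ran from 11.55 to 12.77 with overexpressing and from 11.49 to 12.61 with depleted targets, and Krt7, Wt1, Col4a2 and Lamb1 among them lay under the filter. Overexpressing minus depleted, this sum differed by 0.74 in mouse A, by 0.68 and 0.69 in mice C and D, and by -1.05 in mouse B. In deviations from the group means over all tested genes, each array of mouse B was also more like one of mouse D than like its partner. The labels of mouse B were used as given, whether its arrays carry the right target was not tested, and the sign of each of its differences between targets depends on it. Values without mouse B are given where they matter. In such bulk samples, fewer cells of a type and less RNA per cell cannot be told apart.

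The comparison of targets asked whether T cells that had met PD-L1-rich targets carried other levels of these genes than T cells that had met PD-L1-poor ones. No member passed. With the mouse as a block, limma called 0 of 28 higher and 0 lower, against 0% of all tested genes in each direction, and every member had an adjusted p of 0.9995. An unadjusted p under 0.05 was reached by 2 members, Etfa and Slc25a20, against 2.85% of all tested genes. Fitted differences were above 0 for 23 members and below 0 for 5, against 53.4% above 0 over all tested genes, with a median of 0.021 over the members and 0.0033 over all. That split was 19 to 9 after quantile normalization of the arrays, where 46.0% of all genes were above 0, and 16 to 12 without mouse B. Leaving out some mouse turned the sign of 15 of the 28. The farthest end of any member's 95% interval, that of Acsl4, was 0.245, a 1.19-fold difference.

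**Figure D1:**
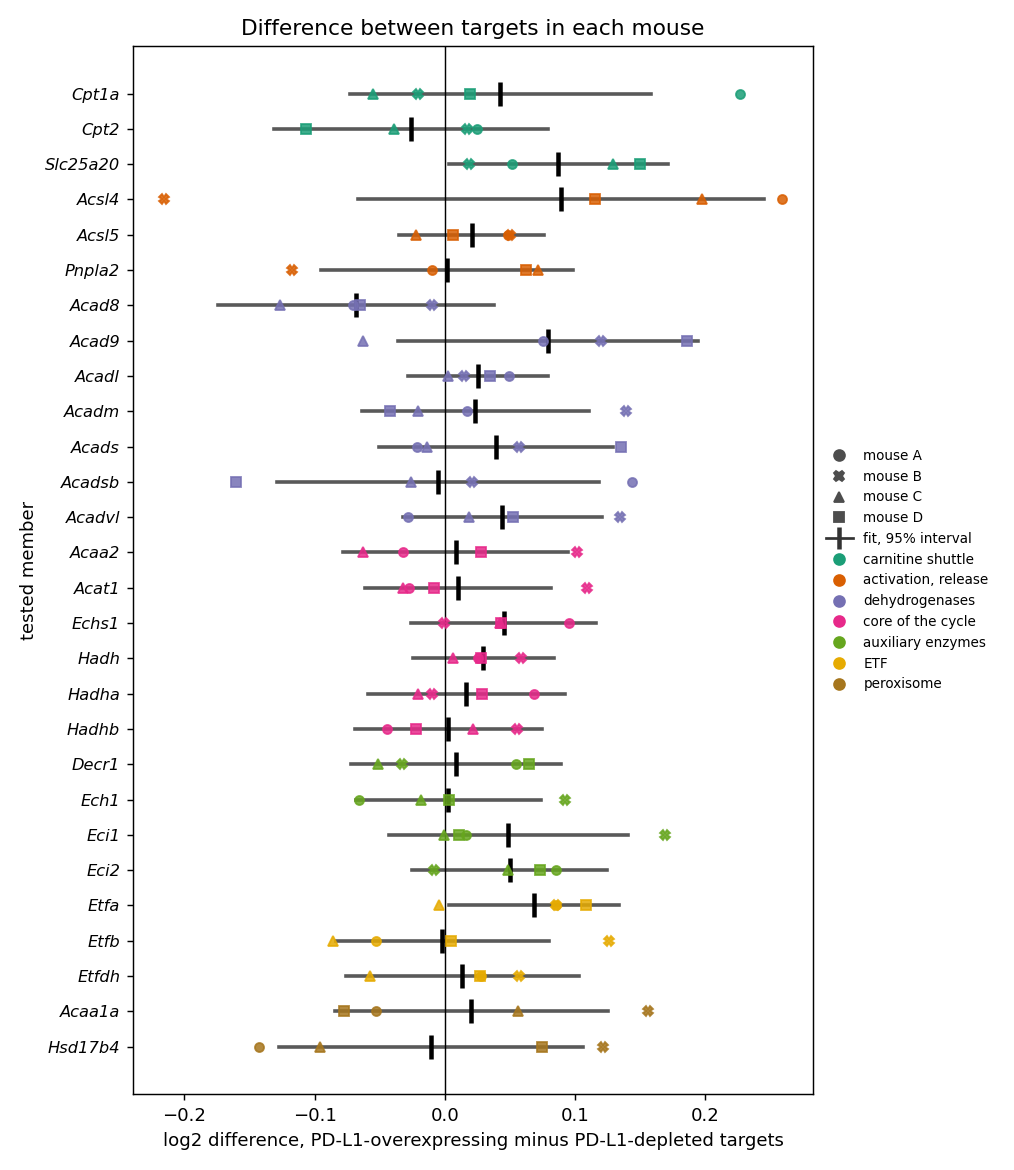
Log2 difference of each of the 28 tested members, PD-L1-overexpressing minus PD-L1-depleted targets, ordered by role: symbols are the 4 mice, the upright mark is the limma estimate and the bar its 95% interval. Only the bars of Etfa and Slc25a20 leave 0 out, before adjustment, and the 4 mice of Acsl4 lie farthest apart, with mouse B on the other side of 0.

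The carnitine shuttle was followed first. Slc25a20, the translocase, had 9.81, 9.89, 9.95 and 9.91 in mice A to D with PD-L1-overexpressing targets, against 9.76, 9.87, 9.83 and 9.76 with PD-L1-depleted targets. Each mouse was higher with overexpressing targets, although the groups overlap. The difference was 0.087 (SE 0.037), or 1.06-fold, with an unadjusted p of 0.0434 that did not pass (limma adjusted p = 0.9995). A second probe set of Slc25a20, which may also read other transcripts, differed by -0.0024.

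Cpt1a, the enzyme that sets the pace of fatty acid entry, had 9.32, 9.25, 9.24 and 9.40 with overexpressing targets, against 9.10, 9.27, 9.29 and 9.38 with depleted targets. Only mouse A showed a gap wider than 0.1, and mice B and C were lower with overexpressing targets. The difference was 0.043 (SE 0.051), with a 95% interval from -0.073 to 0.158. Without mouse A it was -0.019. Cpt2, the inner-membrane transferase, had 8.40, 8.27, 8.28 and 8.32 with overexpressing targets, against 8.37, 8.25, 8.31 and 8.43 with depleted targets. The groups overlapped throughout, at a difference of -0.026 (SE 0.047). Crat, which makes carnitine esters of short acyl groups, lay between 6.58 and 6.94 on all arrays, under the filter, and was not tested.

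Among enzymes that supply fatty acyl-CoA, Acsl4, a synthetase that prefers arachidonic acid, differed most unevenly between mice. It had 10.10, 9.87, 9.98 and 9.93 with PD-L1-overexpressing targets, against 9.84, 10.09, 9.78 and 9.82 with PD-L1-depleted targets. Mice A, C and D were higher with overexpressing targets, by 0.26, 0.20 and 0.12, and mouse B differed by -0.22. Over all mice the difference was 0.089 (SE 0.069) and did not pass. Without mouse B it was 0.19 (SE 0.041), limma adjusted p = 0.0130, while it was 0.032 (SE 0.074) without mouse A, 0.053 without C and 0.081 without D. In the fit without mouse B, Acsl4 was the 1 member of 28 called, against 1.9% of all tested genes called higher and 0.3% called lower. All 3 probe sets of Acsl4 gave the same order of signs over the mice: the other two had 0.13, -0.067, 0.012 and 0.038, and 0.15, -0.019, 0.020 and 0.048. In each mouse these were smaller in size than on the main probe set. The fit without mouse B was made on the main probe set and not on these.

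This order of signs, with A, C and D above 0 and B below, is that of the summed tumour markers given above. Among the single markers, Krt7, Krt8, Cav1 and Lamb1 did not have it. Lpl, the lipoprotein lipase, is a gene of the wider pathway named after its values were seen. It differed by 1.91, -2.29, 1.65 and 1.88 in mice A to D. Over all mice its difference was 0.79 (SE 0.59) and did not pass (limma adjusted p = 0.9995). It passed in the fit without mouse B, which leaves out the mouse of opposite sign (limma adjusted p = 4.6e-13). Among the members, Echs1, Eci2 and Acsl4 had these signs, 3 of 28, against 8.96% of all tested genes, and Acat1 alone had all 4 signs turned, against 13.4%. The part of tumour cell RNA in the difference of Acsl4 was not tested.

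**Figure D2:**
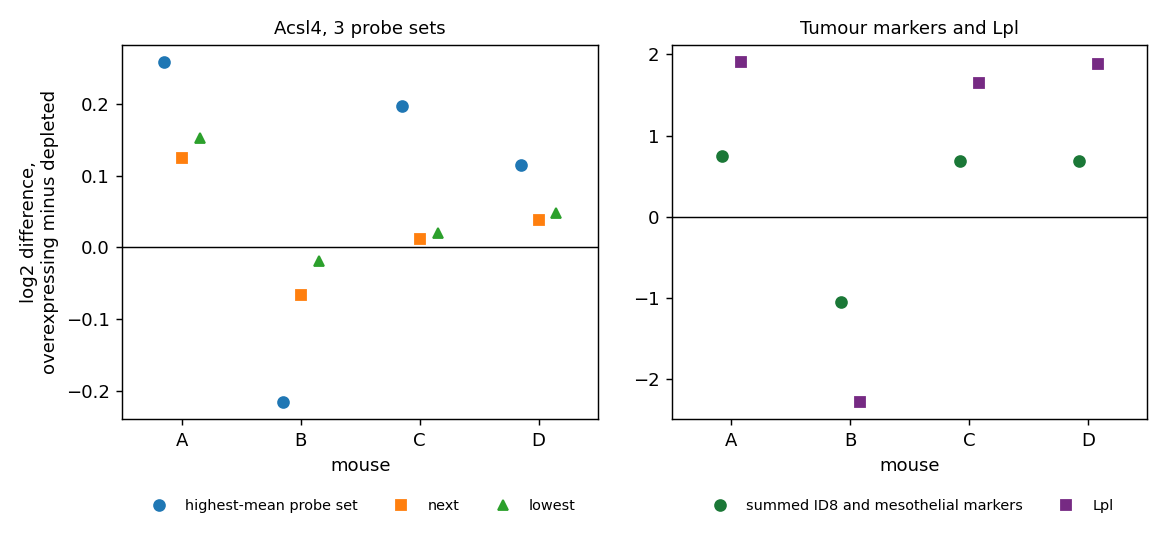
Log2 difference between targets in each mouse, PD-L1-overexpressing minus PD-L1-depleted, for the 3 probe sets of Acsl4 (left) and for the summed ID8 and mesothelial markers and Lpl (right), on axes of different scale. Mice A, C and D lie above 0 and mouse B below it in both panels.

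Acsl5, a synthetase of mitochondria and endoplasmic reticulum, had 12.06, 11.96, 11.92 and 11.99 with overexpressing targets, against 12.01, 11.91, 11.94 and 11.98 with depleted targets, a difference of 0.021 (SE 0.025). Pnpla2, the lipase that opens triglyceride stores, differed by 0.0015 (SE 0.043). Neither separated the groups.

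Acyl-CoA dehydrogenases carry out the opening oxidation, each for its own chain length. Acadvl, for very long chains, had 10.83, 10.95, 10.83 and 10.97 with overexpressing targets, against 10.86, 10.82, 10.82 and 10.91 with depleted targets, and differed by 0.044 (SE 0.034). Acadm, for medium chains, had 10.27, 10.25, 10.13 and 10.14 with overexpressing targets, against 10.26, 10.11, 10.15 and 10.19 with depleted targets. In Acadvl as in Acadm, mouse B held the widest gap, and the difference of Acadm, 0.024 (SE 0.039), was -0.015 without that mouse. Acadvl differed by 0.014 without it. Acad9, which also serves in the assembly of respiratory complex I, had 8.60, 8.56, 8.49 and 8.73 with overexpressing targets, against 8.52, 8.44, 8.55 and 8.55 with depleted targets. Mouse C alone was lower with overexpressing targets, and the difference of 0.080 (SE 0.051) was 0.044 without mouse D and 0.13 without mouse C. The other probe set of Acad9 differed by 0.00056. Acad8, an enzyme of valine breakdown, had 8.22, 8.14, 7.99 and 8.13 with overexpressing targets, against 8.29, 8.15, 8.12 and 8.20 with depleted targets. Each mouse was lower with overexpressing targets, at a difference of -0.068 (SE 0.047) that did not pass. Acadl, for long chains, differed by 0.025 (SE 0.024), and by -0.025 with its probe sets averaged. Acads, for short chains, differed by 0.039 (SE 0.040), and Acadsb, for branched short chains, by -0.0054 (SE 0.055).

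The trifunctional protein, whose subunits Hadha and Hadhb hold the long-chain hydratase, dehydrogenase and thiolase, gave similar values in both groups on the main probe sets. Hadha had 10.08, 10.05, 10.08 and 10.18 with overexpressing targets, against 10.01, 10.06, 10.10 and 10.15 with depleted targets, a difference of 0.017 (SE 0.034). Hadhb had 10.59, 10.55, 10.47 and 10.61 with overexpressing targets, against 10.63, 10.50, 10.45 and 10.63 with depleted targets, a difference of 0.0028 (SE 0.032). The 95% intervals reached at most 0.092 for Hadha and 0.075 for Hadhb. A second probe set of Hadhb, of a kind that can read related transcripts, had 9.76, 9.52, 9.56 and 9.66 with overexpressing targets, against 9.42, 9.83, 9.39 and 9.66 with depleted targets. It did not show that closeness: mice A and C were higher with overexpressing targets, by 0.35 and 0.18, mouse B differed by -0.31 and mouse D by -0.0030. Echs1, the short-chain hydratase, had 10.52, 10.48, 10.54 and 10.57 with overexpressing targets, against 10.43, 10.48, 10.50 and 10.53 with depleted targets, a difference of 0.045 (SE 0.031). Hadh, the hydroxyacyl dehydrogenase of shorter chains, was higher with overexpressing targets in all 4 mice by a difference of only 0.030 (SE 0.024). Another probe set of Hadh, at a mean of 10.54, differed by -0.011, -0.075, -0.011 and 0.099 in mice A to D. The thiolases Acaa2 and Acat1 differed by 0.0086 (SE 0.038) and 0.010 (SE 0.032).

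Of the enzymes that handle double bonds, the isomerase Eci2 had 10.12, 10.30, 10.18 and 10.30 with overexpressing targets, against 10.03, 10.31, 10.13 and 10.22 with depleted targets. Its difference was 0.050 (SE 0.033), smaller than the gap between mice A and B in either group. The isomerase Eci1 differed by 0.049 (SE 0.041), the dienoyl-CoA isomerase Ech1 by 0.0029 (SE 0.031) and the dienoyl-CoA reductase Decr1 by 0.0088 (SE 0.036).

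The flavoprotein that takes the electrons gave the smallest p of all members. Etfa, its alpha subunit, had 11.40, 11.35, 11.37 and 11.50 with PD-L1-overexpressing targets, against 11.32, 11.27, 11.38 and 11.39 with PD-L1-depleted targets. Mice A, B and D were higher with overexpressing targets, mouse C was slightly lower, and the groups overlap. The difference was 0.069 (SE 0.029), or 1.05-fold, at an unadjusted p of 0.0412. Etfb, the partner subunit, differed by -0.0019 (SE 0.036), and Etfdh, which hands the electrons to ubiquinone, by 0.014 (SE 0.040).

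Peroxisomes shorten very long and branched chains. Hsd17b4, the bifunctional enzyme of that route, differed by -0.010 (SE 0.052) and the thiolase Acaa1a by 0.021 (SE 0.047). Acox3, an oxidase of branched chains, ran from 6.61 to 6.91 and Ehhadh, the other bifunctional enzyme, from 4.92 to 5.16 on all arrays, both under the filter.

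On the main probe sets, 3 members were higher with overexpressing targets in all 4 mice, against 5.84% of all tested genes. They were Slc25a20, Acadl and Hadh, and a further probe set of each was not higher in all 4. Acad8 was the 1 member lower in all 4, against 4.69%. Another 9 were higher in 3 mice, against 26.8%, 14 in 2, against 38.2%, and 1, Acat1, in 1, against 24.4%. The groups overlapped in every tested member, where 0.45% of tested genes had groups that did not. Ppara, the lipid-sensing receptor that drives these genes in liver, ran from 5.56 to 5.91 over the arrays, under the filter. Ppargc1a, a coactivator of mitochondrial genes, had 5.55, 5.68, 5.67 and 5.70 with overexpressing targets, against 5.71, 5.72, 5.84 and 5.92 with depleted targets. It was the only 1 of 33 members whose groups did not overlap, against 0.96% of all genes with a probe set, and lay under the filter. Tested without the filter it differed by -0.15 (SE 0.066), unadjusted p = 0.0452, limma adjusted p = 0.998, and its next probe set by level ran the other way, at 0.075.

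The mice differed more than the targets did. Among tested members, mice held 75.6% of the variance, targets 6.0% and the remainder 18.4%, against 74.6%, 4.97% and 20.5% over all tested genes. These are shares of raw sums of squares. The mice have more degrees of freedom than the targets, so their shares are not like for like. By an F test in limma that allowed for the target, 7 of 28 members differed between mice, 25.0% of those tested, against 29.3% of all tested genes, so the members did not stand out by their count. They were Acadl (adjusted p = 0.000106), Ech1 (0.00436), Acaa2 (0.0135), Eci2 (0.0179), Decr1 (0.0194), Acat1 (0.0264) and Hsd17b4 (0.0456). The next, Hadhb, Etfb and Eci1, had adjusted p of 0.0549, 0.0619 and 0.0622. The span from the lowest to the highest mouse had a median of 1.11-fold over the members and 1.14-fold over all tested genes. Without mouse A the count was 2 members and without mouse B it was 11, where the test called 576 and 3555 of all genes. Each mouse had 1 array per target, so what these tests take as error is the disagreement between an animal's own pair of co-cultures.

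Among the members, the 4 enzymes that handle double bonds were lower in mouse A than in the mean of the other mice. So was Acadl, the long-chain dehydrogenase, which made 5 of 28 members lower, against 12.7% of all tested genes. Decr2, a dienoyl-CoA reductase outside the members, went the other way in mouse A, at 0.062, and did not pass (limma adjusted p = 0.449). Another 4 members were higher in mouse A, against 18.1%: the thiolase Acat1, the peroxisomal Hsd17b4, Etfdh and Acsl5.

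Acadl had the widest gap of any member. It had 11.60 in mouse A with overexpressing and 11.55 with depleted targets, against 11.96 and 11.94 in mouse B, 11.83 and 11.83 in C, and 12.02 and 11.98 in D. Both arrays of mouse A lay below the other 6. The difference was -0.35 (SE 0.028), 1.28-fold lower in mouse A, limma adjusted p = 2.4e-05. With the mean of its 2 probe sets in place of the brighter, the other of which averaged only 4.84, the difference was -0.12 and did not pass (limma adjusted p = 0.126).

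Ech1 had 11.20 in mouse A with overexpressing and 11.27 with depleted targets, against 11.43 and 11.34 in B, 11.52 and 11.54 in C, and 11.49 and 11.49 in D. Both arrays of mouse A were again the lowest, at a difference of -0.23 (SE 0.036), 1.17-fold lower (limma adjusted p = 0.00158). Eci2, with the values given above, was lower in mouse A, at -0.17 (SE 0.038, limma adjusted p = 0.0106). Its arrays in mouse A lay just below those of mouse C.

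Eci1 had 9.62 in mouse A with overexpressing and 9.60 with depleted targets, against 9.81 and 9.64 in B, 9.74 and 9.74 in C, and 9.84 and 9.83 in D. Decr1 had 10.06 in mouse A with overexpressing and 10.002 with depleted targets, against 10.05 and 10.09 in B, 10.13 and 10.18 in C, and 10.31 and 10.24 in D. For Eci1 the arrays of mouse A were the lowest, but for Decr1 they overlapped those of mouse B. The differences were -0.16 (SE 0.047, limma adjusted p = 0.0303) for Eci1 and -0.14 (SE 0.041, limma adjusted p = 0.0308) for Decr1. A further probe set of Decr1 at 6.24, under the filter, differed by 0.00026. Without mouse D only 2 members were lower in mouse A, against 8.85% of all tested genes in that fit. Decr1, Eci1 and Eci2 did not pass there.

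Acat1, the acetoacetyl-CoA thiolase of ketone body and isoleucine use, had 11.50 in mouse A with overexpressing and 11.53 with depleted targets, against 11.43 and 11.32 in B, 11.29 and 11.32 in C, and 11.34 and 11.35 in D. Mouse A was the highest on both arrays, by 0.17 (SE 0.036, limma adjusted p = 0.00702), and the other probe sets of Acat1 were higher there too, by 0.17 and 0.22. Hsd17b4 had 9.32 in mouse A with overexpressing and 9.47 with depleted targets, against 9.15 and 9.03 in B, 9.11 and 9.21 in C, and 9.29 and 9.21 in D. It was higher in mouse A by 0.23 (SE 0.060, limma adjusted p = 0.0186), but its other probe set differed by -0.045 and the mean of both did not pass.

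Etfdh was higher in mouse A by 0.15 (SE 0.046, limma adjusted p = 0.0399). Its arrays there read 9.21 with overexpressing and 9.18 with depleted targets, against 9.05 and 8.99 in B, 8.99 and 9.05 in C, and 9.11 and 9.09 in D. Acsl5, with the values given above, was higher by 0.086 (SE 0.028, limma adjusted p = 0.0468). Both of these lay near the threshold, and without mouse C or without mouse D neither passed. That left 2 members higher in mouse A, against 13.8% of all tested genes without mouse C and 11.7% without mouse D.

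Mouse A also differed in some markers of other cells. The summed level of B cell markers was 10.63 in mouse A with overexpressing and 10.69 with depleted targets, against 11.04 to 11.36 in the other mice, with 7 of 8 markers measured and Ighm the 1 above the filter. Ighm made up most of this sum, at 10.21 and 10.26 in mouse A against 10.71 to 11.07. Under the filter, Blk was also lowest in mouse A, at 5.50 and 5.67 against 5.68 to 6.05. Cd79a, Cd79b, Ms4a1, Pax5 and Cd22 overlapped the other mice. The summed level of macrophage and dendritic cell markers was 9.85 and 10.03 in mouse A, against 10.41 to 10.60, with 8 of 9 measured and 3 above the filter. The widest gap among these markers was that of Fcer1g, at 7.23 and 7.44 in mouse A against 8.50 to 9.32. Fcer1g made up the largest part of this sum in the other mice. Under the filter, Tyrobp was also lowest in mouse A, at 6.28 on both arrays against 6.59 to 7.04. Itgam, Cd14 and Itgax overlapped the other mice. Cd68 was lower in mouse A at -0.34 (limma adjusted p = 0.0032), Csf1r differed by -0.031 and did not pass, and Lyz2 had 6.22 and 6.38, against 6.08 to 6.42. The CD8 T cell sum was 15.78 and 15.77 in mouse A, against 15.84 to 15.88. Its markers did not move together. Cd3d, Cd3g, Cd247 and Cd8a were lower in mouse A, and Cd2 was higher, by 0.25 (limma adjusted p = 0.000833). Cd3e, Cd8b1 and Thy1 did not pass. The part of these in the differences of mouse A was not tested.

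**Figure D3:**
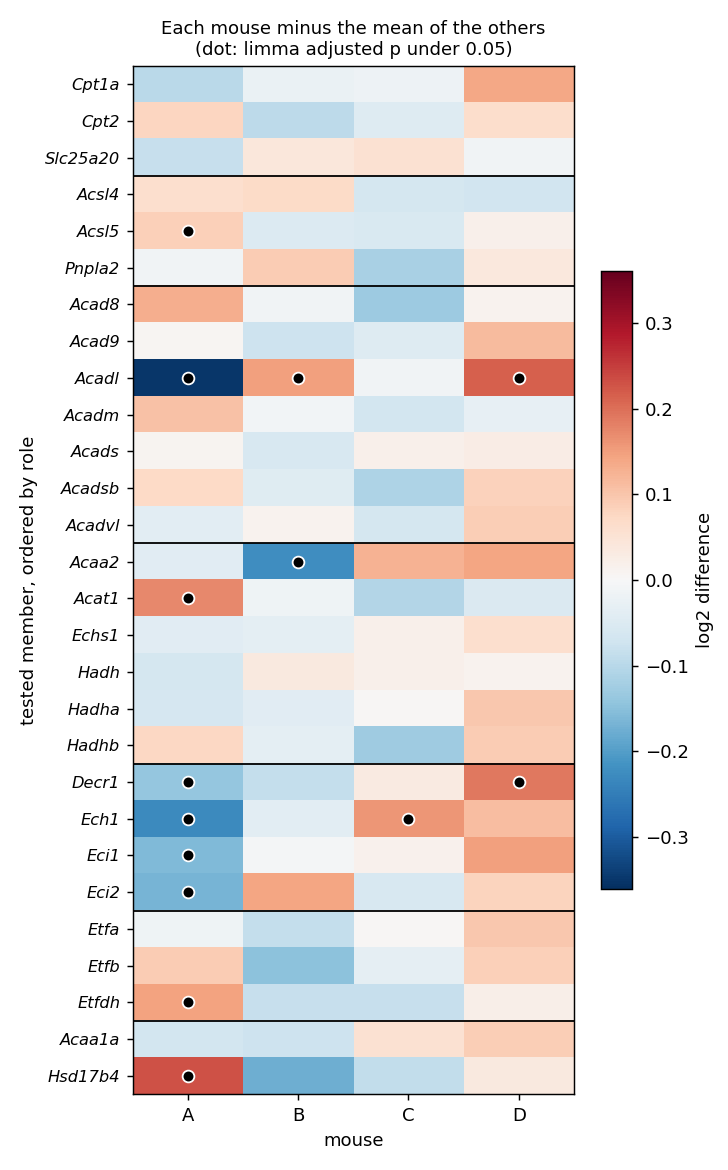
Each cell is the log2 difference of 1 mouse (columns A to D) from the mean of the other mice for 1 of the 28 tested members (rows, grouped by role between the lines: carnitine shuttle, activation and release, dehydrogenases, core of the cycle, double bonds, electron transfer, peroxisome), and a dot marks limma adjusted p under 0.05. The 4 enzymes of double bonds are below 0 with a dot in mouse A, and 24 of 28 members are above 0 in mouse D.

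The other mice differed in fewer members. In mouse B, Acadl was higher by 0.15 (SE 0.028, limma adjusted p = 0.0113), against 6.3% of all tested genes higher, and Acaa2 was lower, against 2.96% lower. Acaa2, the mitochondrial thiolase of medium and long chains, had 9.84 in mouse B with overexpressing and 9.73 with depleted targets, against 9.91 and 9.94 in A, 10.01 and 10.08 in C, and 10.07 and 10.05 in D. Both arrays of mouse B were the lowest, at -0.22 (SE 0.044, limma adjusted p = 0.0151), and the other probe sets of Acaa2 were also below 0 there, at -0.11 and -0.12. Without mouse A Acadl did not pass in mouse B, and without mouse D Acaa2 did not.

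In mouse C, Ech1 was higher by 0.16 (SE 0.036, limma adjusted p = 0.0308), against 3.09% of all tested genes higher, and 0 members were lower, against 5.35%. In mouse D, Acadl was higher by 0.21 (SE 0.028, limma adjusted p = 0.00176) and Decr1 by 0.19 (SE 0.041, limma adjusted p = 0.0224), against 4.56% of all tested genes higher, and 0 members were lower, against 4.09%. The median difference of mouse D was 0.082 over the members and 0.00088 over all tested genes, and 24 of 28 members were above 0, against 4036 of 8003. In mouse B 21 of 28 were below 0, against 4215 of 8003. Without mouse A, Ech1 did not pass in mouse C. No member passed in mouse D in that fit, against 1.04% of all tested genes higher and 1.07% lower. Without mouse B the count higher in mouse D was 6, against 11.9% of all tested genes in that fit. The count lower in mouse C was then 3, against 13.1%. Without mouse C the count higher in mouse D was 4, against 5.51%, and without mouse A the count lower in mouse C was 1, against 3.04%. These contrasts share arrays, so the low values of mouse A enter the mean that mice C and D were set against.

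**Figure D4:**
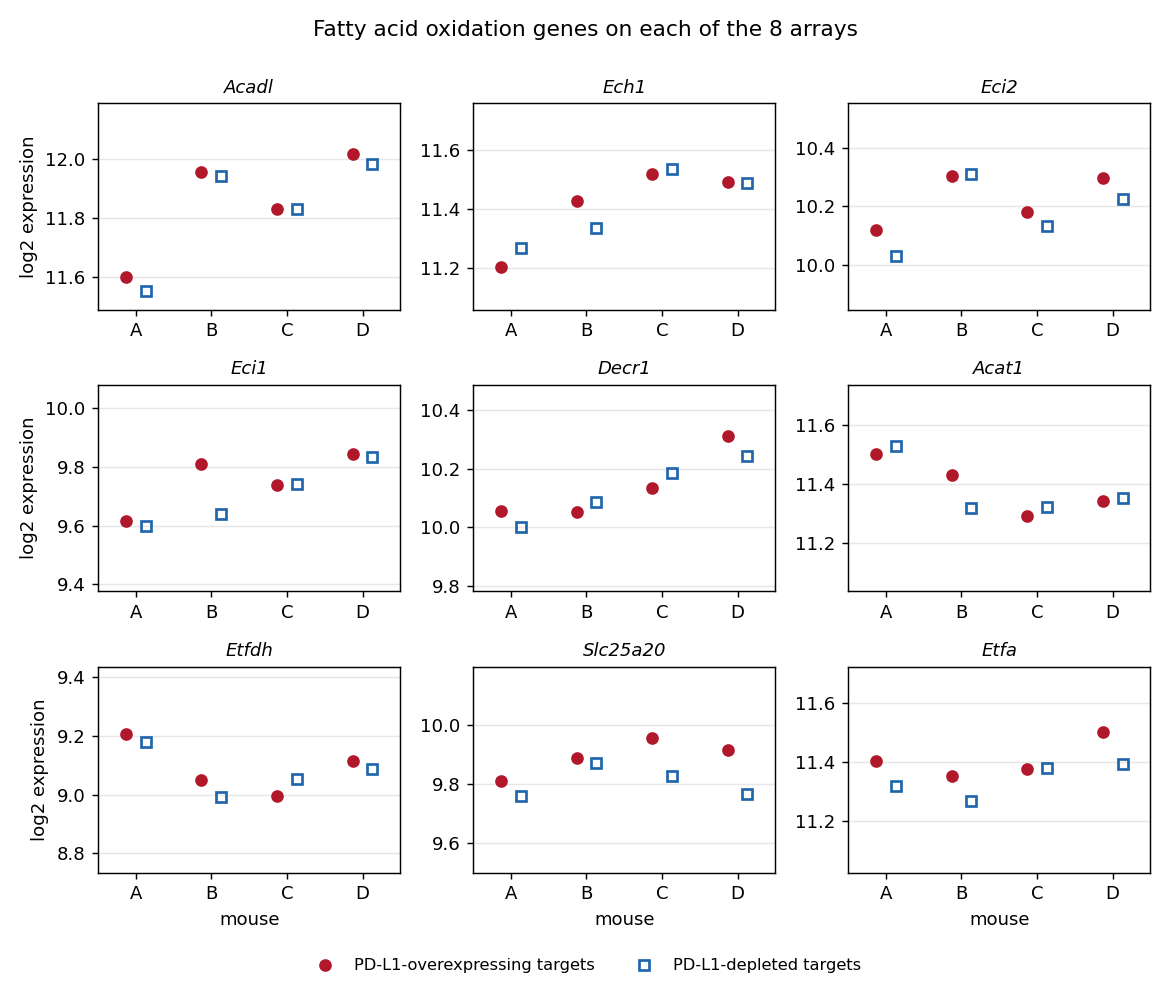
Log2 expression of 9 members on each of the 8 arrays, by mouse: filled circles are PD-L1-overexpressing targets and open squares PD-L1-depleted targets, and each panel spans the same log2 range. In Acadl, Ech1, Eci2 and Eci1 both arrays of mouse A are the lowest and in Acat1 and Etfdh the highest, while in Slc25a20 every circle lies above the square of its mouse.

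Etfb, the remaining member among those with the smallest p between mice, had 11.61, 11.52, 11.50 and 11.63 with overexpressing targets, against 11.66, 11.39, 11.59 and 11.63 with depleted targets. Mouse B was the lowest with depleted targets, and its difference from the other mice, -0.15 (SE 0.042), did not pass (limma adjusted p = 0.0623). Of 11 other probe sets of tested members that lay above the filter, 9 had the sign of the main probe set between targets. For mouse A this held of 6, for mouse B of 5, for mouse C of 6 and for mouse D of 8. The probe sets of Hadh, Acaa1a, Acadsb and Acaa2 are of kinds that can also read related transcripts.

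The promoters of 4 members named above are shown as the 250 bases before the annotated start: Acadl and Ech1, which had the smallest p between mice, Slc25a20, the shuttle gene with the smallest p between targets, which did not pass, and Hadhb of the trifunctional protein. They are RefSeq sequence of GRCm38.p6, written 5′ to 3′ on the gene's strand, at chr1:66863310-66863559 (minus strand) for Acadl, chr7:28825088-28825337 (plus) for Ech1, chr9:108661886-108662135 (plus) for Slc25a20 and chr5:30155003-30155252 (plus) for Hadhb. Capitals mark GGGCGG, the letters of a GC box, or its complement CCGCCC.
Acadl: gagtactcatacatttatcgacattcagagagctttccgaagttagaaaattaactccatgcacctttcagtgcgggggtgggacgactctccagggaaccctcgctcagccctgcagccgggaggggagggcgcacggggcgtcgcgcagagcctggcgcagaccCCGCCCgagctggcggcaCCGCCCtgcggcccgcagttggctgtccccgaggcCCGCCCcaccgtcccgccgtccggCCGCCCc
Ech1: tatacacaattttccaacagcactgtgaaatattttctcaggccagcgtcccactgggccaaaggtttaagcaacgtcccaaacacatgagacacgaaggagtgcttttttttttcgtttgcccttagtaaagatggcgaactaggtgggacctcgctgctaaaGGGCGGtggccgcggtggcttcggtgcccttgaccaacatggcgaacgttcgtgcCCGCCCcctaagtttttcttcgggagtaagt
Slc25a20: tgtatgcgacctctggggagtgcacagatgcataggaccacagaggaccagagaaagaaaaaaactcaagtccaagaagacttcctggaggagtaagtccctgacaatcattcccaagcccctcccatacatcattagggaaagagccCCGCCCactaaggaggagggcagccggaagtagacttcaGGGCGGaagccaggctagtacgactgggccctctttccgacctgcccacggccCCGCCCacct
Hadhb: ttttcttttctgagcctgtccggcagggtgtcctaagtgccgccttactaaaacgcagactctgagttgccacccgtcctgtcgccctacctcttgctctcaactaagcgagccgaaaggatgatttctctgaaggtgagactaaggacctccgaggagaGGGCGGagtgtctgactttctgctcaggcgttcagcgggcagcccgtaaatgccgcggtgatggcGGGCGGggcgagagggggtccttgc

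GGGCGG occurred in 4 places of the Acadl window, 2 of Ech1, 3 of Slc25a20 and 2 of Hadhb, on either strand. The start of Hadha lies 272 bases from that of Hadhb on the opposite strand, so the windows of these partner genes share 228 bases. Of the 36 members, 29 had an entry, and 22 of the 29 held GGGCGG, against 32.7% of 32851 windows of the same length. CCAAT stood in 12 of 29, against 33.8% of all windows, and a nuclear respiratory factor 1 site in 3, against 3.74%. AGGTCA, the core letters read by PPAR and ERR receptors, stood in 4, against 14%. The direct repeat of AGGTCA with 1 free base between its copies (0.0335% of all windows), the longer ERR form TCAAGGTCA (0.387%), both of which contain AGGTCA, and CACGTG (6.02%) were in 0 of 29. These are matches of letters in the window and were not tested against the values.

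Among the 90 other genes of the wider pathway, in 7 lists on uptake, storage, carnitine supply, peroxisomes, other acyl-CoA enzymes, ketone bodies and regulators, 74 had a probe set and 62 were tested. Between targets 0 of 62 passed, 34 were above 0 and 28 below, and 1, Vldlr, a lipoprotein receptor, differed by 0.12 at an unadjusted p of 0.0396 in limma. Between mice 11 of 62, or 17.7%, passed the F test, against 29.3% of all tested genes. Higher in mouse A were 10, against 18.1% of all tested genes, and lower 3, against 12.7%, so the list as a whole held no larger share of calls than other genes.

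Cd36, a fatty acid transporter, had 7.83 in mouse A with overexpressing and 7.77 with depleted targets, against 6.07 to 7.31 in the other mice, and was higher in mouse A by 1.19 (SE 0.11, limma adjusted p = 9.8e-05). Acsl6, a long-chain synthetase, was higher by 1.07 (SE 0.084), Abcd3, a peroxisomal fatty acyl transporter, by 0.57 (SE 0.044) and Pcca, a subunit of propionyl-CoA carboxylase, by 0.56 (SE 0.043). Dbi, which binds acyl-CoA, and Acss2, which activates acetate, were lower in mouse A, at -0.60 (SE 0.039) and -0.76 (SE 0.065). For the genes other than Cd36, the limma adjusted p was under the threshold for each. These genes were picked among those that passed the F test. Their differences of mouse A were all wider than that of any of the 28 members. Lipe, Lipa and Dgat1, which also passed the F test, differed less than Acadl, at 0.32, 0.27 and -0.22 in mouse A.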

How the data were processed

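RNA of 8 samples was measured on 3' expression arrays, 4 per group. Per the labels' protocols, total RNA was labelled with the Affymetrix 3' IVT Express kit. The authors deposited 1 log2 value per probe set and array, and how they summarised and normalised the probes is not given in the sources used here. That the scale is log2 was judged from their range, 3.60 to 15.24. Sorted values of different arrays lay at most 0.167 apart at any rank, so a shift of most genes at once would not show. The table held 0 columns of other samples.

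Of 22690 probe sets, 64 controls were left out, and of the remainder 20380 had 1 symbol in the platform annotation, 691 several and 1555 none. Genes averaging under 6.87, the 40th percentile of probe set means, were not tested. The tests were limma 3.58.1 in R 4.3.3 (lmFit, eBayes with a trend). They were two-sided, and p-values were adjusted by Benjamini-Hochberg over 8003 genes at a threshold of 0.05. They were tested on simulated data. Targets were compared with the mouse as a fixed block, because the series design states that each mouse's T cells were divided. Deviations from group means correlated across genes, within an animal, at 0.82 for mouse A, 0.16 for B, 0.61 for C and 0.64 for D. Each mouse was also set against the mean of the others, with the target as covariate. Precision is limited by the 4 arrays of each group.

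The members and lists were chosen with earlier results of these data known. Values by array are given for the 8 members with the smallest p between targets, the 10 between mice and 7 central enzymes, and up to 4 other genes per pathway list that passed the F test may be named. Alternatives were no block or a random block for the mouse, quantile normalization, averaged probe sets, other filters, other variance priors and leaving out each mouse.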

Additional observations from a re-analysis of the deposited data

Results flagged for a closer look

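Of 66 groups of 4 arrays examined, 33 members in 2 groups, 1 held an array far from the others, where chance gives about 1 in 20, or 3.3. It was Acat1 with PD-L1-depleted targets, where mouse A had 11.53, mouse D 11.35, and mice B and C 11.32, so that the gap to the nearest array was 0.851 of the range. Acat1 in mouse A also had the highest of the 4 values with PD-L1-overexpressing targets, 11.50.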

How the results depend on the processing

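The count of 0 members called between targets held under no replicate block (median difference 0.021), a random block for the mouse, quantile normalization, both other filters, averaged probe sets and both other variance priors. Leaving out each mouse gave 0 to 1 members and 0 to 1 other pathway genes, against 0% to 2.2% of all tested genes. The median was then 0.013 to 0.034. Differences between targets reversed in 4 members after quantile normalization, to -0.0090 for Hadhb, -0.0058 for Ech1, -0.011 for Pnpla2 and -0.0029 for Decr1. With averaged probe sets 4 reversed, to -0.025 for Acadl, 0.015 for Hsd17b4, -0.025 for Pnpla2 and -0.029 for Acaa1a. Leaving out a mouse turned 15 of 28 members: Cpt1a (-0.019 to 0.075), Cpt2 (-0.043 to 0.00096), Acadm (-0.015 to 0.045), Acadsb (-0.055 to 0.046), Hadha (-0.00049 to 0.029), Hadhb (-0.015 to 0.019), Acaa2 (-0.022 to 0.032), Acat1 (-0.023 to 0.024), Ech1 (-0.027 to 0.026), Decr1 (-0.0099 to 0.029), Etfb (-0.045 to 0.026), Etfdh (-0.00085 to 0.037), Hsd17b4 (-0.055 to 0.034), Acaa1a (-0.025 to 0.053) and Pnpla2 (-0.022 to 0.041).

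Members called by the F test between mice numbered 5 to 10 under the other settings, against 17.4% to 39.7% of all tested genes. Without a mouse they numbered 2 to 11, against 7.20% to 44.4%. Other pathway genes numbered 7 under the 60th percentile filter, against 39.7%, and 5 to 22 without a mouse, against 7.20% to 44.4%. Members higher in mouse A were 2 after quantile normalization and 2 without a filter, against 15.9% and 10.6% of all tested genes. Lower in A were 3 with the mean of probe sets and 3 without a trend, against 12.8% and 10.7%. Higher in B were 2 under the 60th percentile filter, 2 with robust variances and 0 without a trend, against 8.61%, 7.45% and 3.96%. Lower in B were 2 after quantile normalization and 2 with robust variances, against 3.56% and 3.99%. Higher in C were 0 without a trend, against 2.01%, and lower in C 1 with robust variances, against 7.15%. Higher in D were 0 with the mean of probe sets and 1 without a trend, against 4.76% and 2.45%. Without a mouse the counts ran from 2 to 5 higher and 2 to 6 lower in A, against 11.7% to 26.1% and 8.85% to 17.8%. In B they ran from 0 to 2 and 0 to 1, against 4.64% to 5.65% and 2.20% to 2.34%. In C they ran from 0 to 1 and 0 to 3, against 1.31% to 7.92% and 3.04% to 13.1%. In D they ran from 0 to 6 and 0 to 0, against 1.04% to 11.9% and 1.07% to 10.6%. The cause was not tested for any of these. With 2 arrays per mouse, differences of single mice rest on few values, and the deposited values give no signal over background beyond the filter.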
